A study of Ovis aries with 6 samples.

Results

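The cells described here are granulosa cells of the sheep ovary with a high summed count of INHA and AMH transcripts. INHA encodes the alpha subunit of inhibin and AMH encodes anti-Müllerian hormone, and a cell could be included through either of them. The cells were chosen by their counts of unique molecular identifiers (UMI, each marking a captured RNA molecule) of the genes named next, from barcodes with at least 1000 UMI and at most 10% of UMI in mitochondrial genes. A barcode passed the granulosa gate when CDH2, FST, INHA and FSHR had at least 4 UMI together and more UMI than PECAM1, KDR, PTPRC, PDGFRA and INSL3. Within the gate, cells with at least 5 UMI of AMH and INHA were retained when HTRA3 and JPH1 had at most 2 UMI, CYP19 (the aromatase gene) had fewer than 3, and at most 2 of the cell cycle genes MKI67, TOP2A, CDK1, CCNB1, UBE2C and BIRC5 were detected. This gave 375 INHA/AMH-high cells, 18.5% of the 2026 cells in the granulosa gate and 0.975% of the 38465 filtered barcodes. Of the other 1651 gate cells, 971 met the 3 upper limits but had too few UMI of AMH and INHA. The rest exceeded an upper limit, whatever their AMH and INHA. Counted once each, 405 were assigned to the HTRA3 and JPH1 limit, 255 to the cell cycle limit and 20 to the CYP19 limit.

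The ovaries came from 6 Hu ewes in oestrus, a breed known for large litters, with 1 ovary and 1 library of droplet-based 3′ sequencing per ewe. The HLS group held 3 ewes with litters of at least 3 lambs, and the LLS group held 3 ewes with litters under 2 lambs. The groups reflect natural litter size, with no treatment and no allele given in the labels. Each whole ovary was digested, so that the follicle a cell came from is not known.

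Granulosa cells surround the oocyte and line the growing follicle. The inhibin alpha subunit pairs with a beta subunit (INHBA or INHBB) into inhibin, which lowers the secretion of follicle-stimulating hormone by the pituitary, whereas paired beta subunits form activin, which follistatin (FST) binds. AMH of growing follicles restrains the recruitment of primordial follicles, and Indian hedgehog (IHH) of granulosa cells signals to the theca, the steroid-making layer outside the follicle wall.

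The number of INHA/AMH-high cells was 17, 130 and 92 in HLS1, HLS2 and HLS3, and 43, 65 and 28 in LLS1, LLS2 and LLS3. Their median depth was 17301, 12314 and 13919 UMI in the HLS ewes and 5652, 11445 and 10395 UMI in the LLS ewes. Hence LLS1 was the shallowest library for these cells, and HLS1 rested on the fewest. No barcode was an INHA/AMH-high cell in more than 1 library, and pairs of libraries shared 5 to 18 filtered barcodes. Of the INHA/AMH-high cells, 19 (5.07%) resembled simulated doublets, against 5.22% of all filtered barcodes.

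The label was checked against its markers. FST, which is also a gate gene, was detected in 89.3% of the INHA/AMH-high cells, and IHH, which the selection did not use, in 19.7% (74 of 375). IHH was detected in 6.06% of the other gate cells and in 0.239% of 15499 cells of an endothelial gate, which stood for free RNA. Endothelial-gate cells had a median of 6754.5 to 12911 UMI per ewe. With every cell thinned to 3000 UMI, the shares with IHH were 14.5%, 2.80% and 0.0732%, thus in the same order.

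The label did not hold for all of these cells. CYP17A1 and INSL3, an androgen-making enzyme and a hormone of theca cells, had at least 2 UMI together in 51 INHA/AMH-high cells (13.6%), of which 4, 11 and 21 were in HLS1 to HLS3 and 1, 3 and 11 in LLS1 to LLS3. Only 9 of the 51 had a UMI of AMH, in contrast to 253 of the remaining 324 cells. FSHR, the receptor for follicle-stimulating hormone, was detected in 3.92% of the 51 and in 67.6% of the 324. LHCGR, the receptor for luteinising hormone, showed the reverse order, with 94.1% and 9.57%. The median UMI of FST, CDH2 and FSHR was 15, 1 and 5 in the marked cells of the HLS ewes and 0, 3 and 1 in those of the LLS ewes, whereas the other INHA/AMH-high cells had 20, 22 and 22 and 5, 24 and 31. Among the marked cells 3 were called doublets. They were given no cell type name, and results below are stated with them and, where it matters, without them. The other lists of foreign markers ranged widely. Stromal genes (8 genes, led by DCN) summed to 3.57 to 20.6 UMI per 10000 per ewe, highest in HLS3 and LLS3. Luteal genes (6, led by LHCGR) summed to 0.711 to 13.6 and were also highest in these ewes. Perivascular genes (8, led by MYH11) summed to 1.89 to 7.48 and endothelial genes (8, led by VWF) to 0.819 to 2.33. Immune genes (8 genes, led by PTPRC) summed to 0.0190 to 0.254 UMI per 10000 per ewe, and of 10 oocyte genes 8 had no UMI, GDF9 being the most abundant of the others with 6 UMI in all.

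Levels are given as UMI of a gene per 10000 UMI summed over the cells of an ewe. INHA, used in the selection, was at 13.01, 7.41 and 4.63 in the INHA/AMH-high cells of HLS1 to HLS3 and at 21.7, 9.87 and 9.47 in those of LLS1 to LLS3. AMH was at 3.53, 3.65 and 2.65 in the HLS ewes and at 2.16, 3.35 and 1.21 in the LLS ewes. Thus INHA was highest in LLS1 and AMH lowest in LLS3, and the ranges of the groups overlapped for both. IHH was at 0.909, 0.963 and 0.508 in the HLS ewes and at 0.515, 1.89 and 0.858 in the LLS ewes, and in the other gate cells it ranged from 0.0191 to 0.332. Every ewe had more IHH in the INHA/AMH-high cells than any ewe had in the other gate cells. In HLS1, however, all 25 UMI of IHH came from 1 of its 17 cells, so that its level rests on that cell. FST was at 22.7, 12.6 and 8.82 in the HLS ewes and at 18.9, 15.02 and 15.4 in the LLS ewes, and at 1.83 to 9.03 in the other gate cells. In HLS1, 1 cell held 135 of the 358 UMI of INHA and 353 UMI of FST, a large part of both levels.

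**Figure D1:**
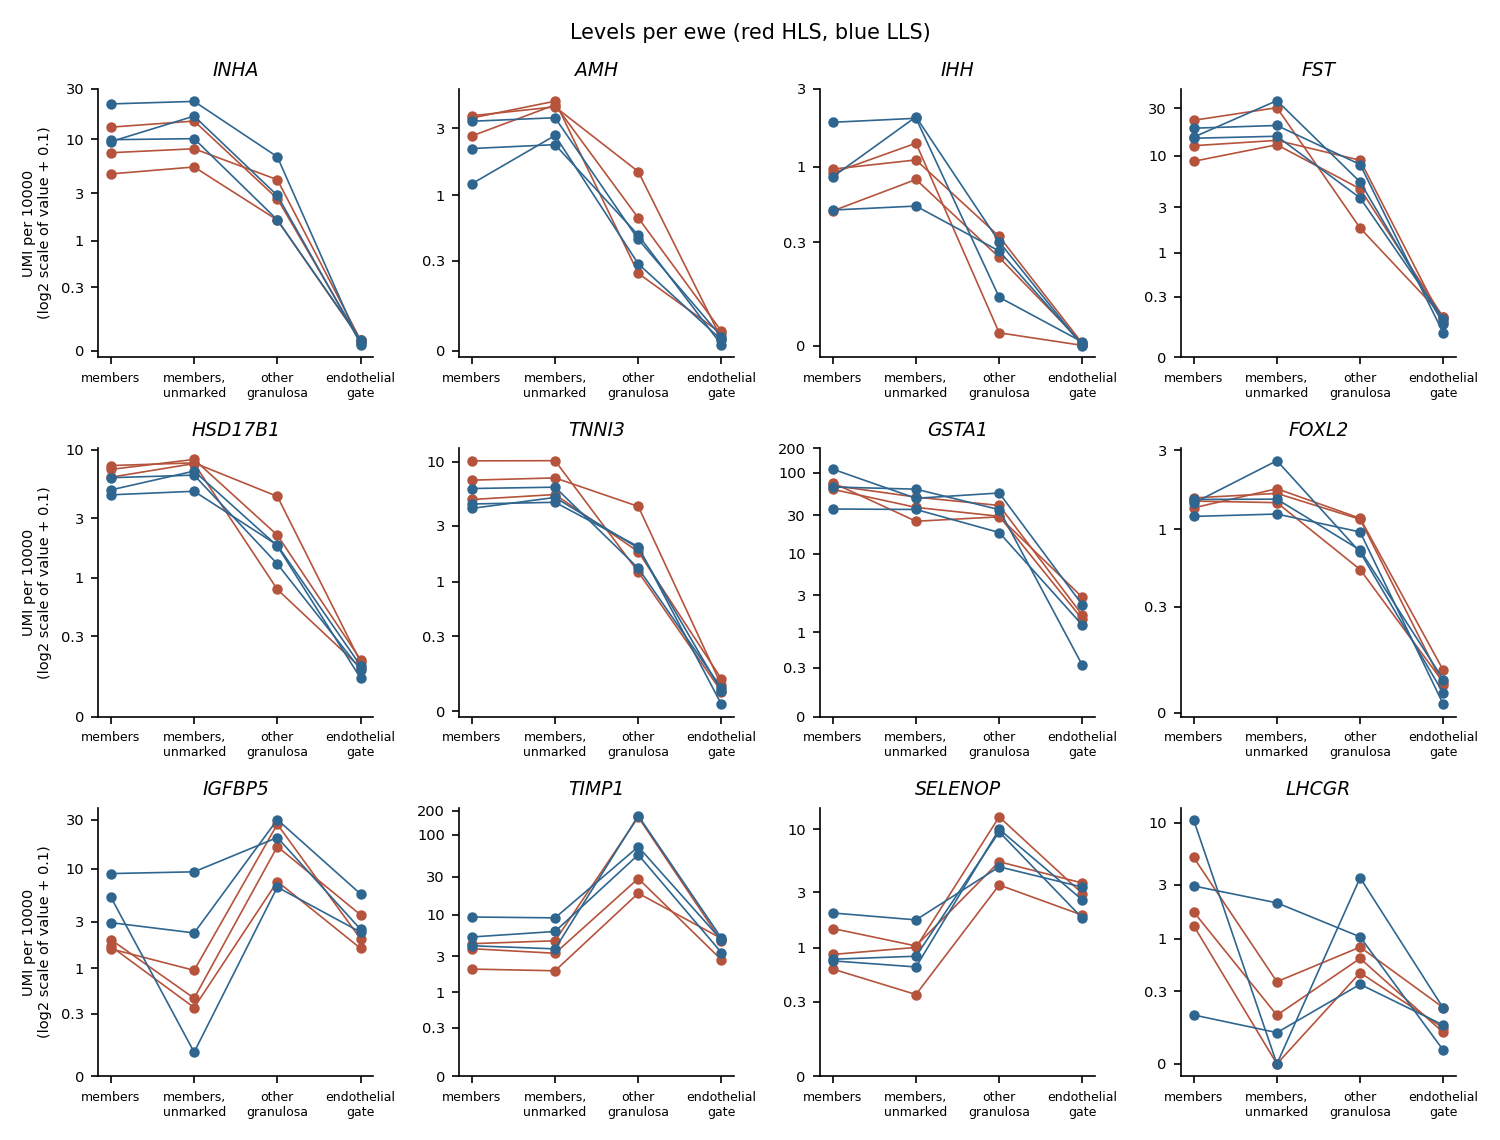
Levels of 12 genes (vertical axis, UMI per 10000 on a log2 scale after adding 0.1) in the INHA/AMH-high cells, in the same cells without those marked by CYP17A1 and INSL3, in the other granulosa-gate cells and in the endothelial gate, with a point per ewe (red HLS, blue LLS). IHH, HSD17B1 and TNNI3 were higher in the INHA/AMH-high cells than in the other gate cells of every ewe, TIMP1 and SELENOP were lower, and LHCGR, higher in 5 of 6 ewes, was lower in 5 of 6 (all but LLS1) once the marked cells were left out.

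The balance between the defining transcripts differed from cell to cell. INHA was detected in 368 cells and AMH in 262, with 113 cells holding INHA only and 7 holding AMH only. AMH exceeded INHA in 81 cells, and INHA exceeded AMH in 284. AMH was counted in 76.5%, 78.5% and 73.9% of the cells of HLS1 to HLS3 and in 27.9% and 81.5% of those of LLS1 and LLS2, and 14 of 28 cells had it in LLS3. LLS1, where most cells lacked AMH, also had the lowest median depth of these cells, although its filtered barcodes had the highest (9990 UMI, against 5334 to 7994 in the other ewes). In the endothelial gate 2.17% of cells had a UMI of AMH and 2.06% one of INHA.

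**Figure D2:**
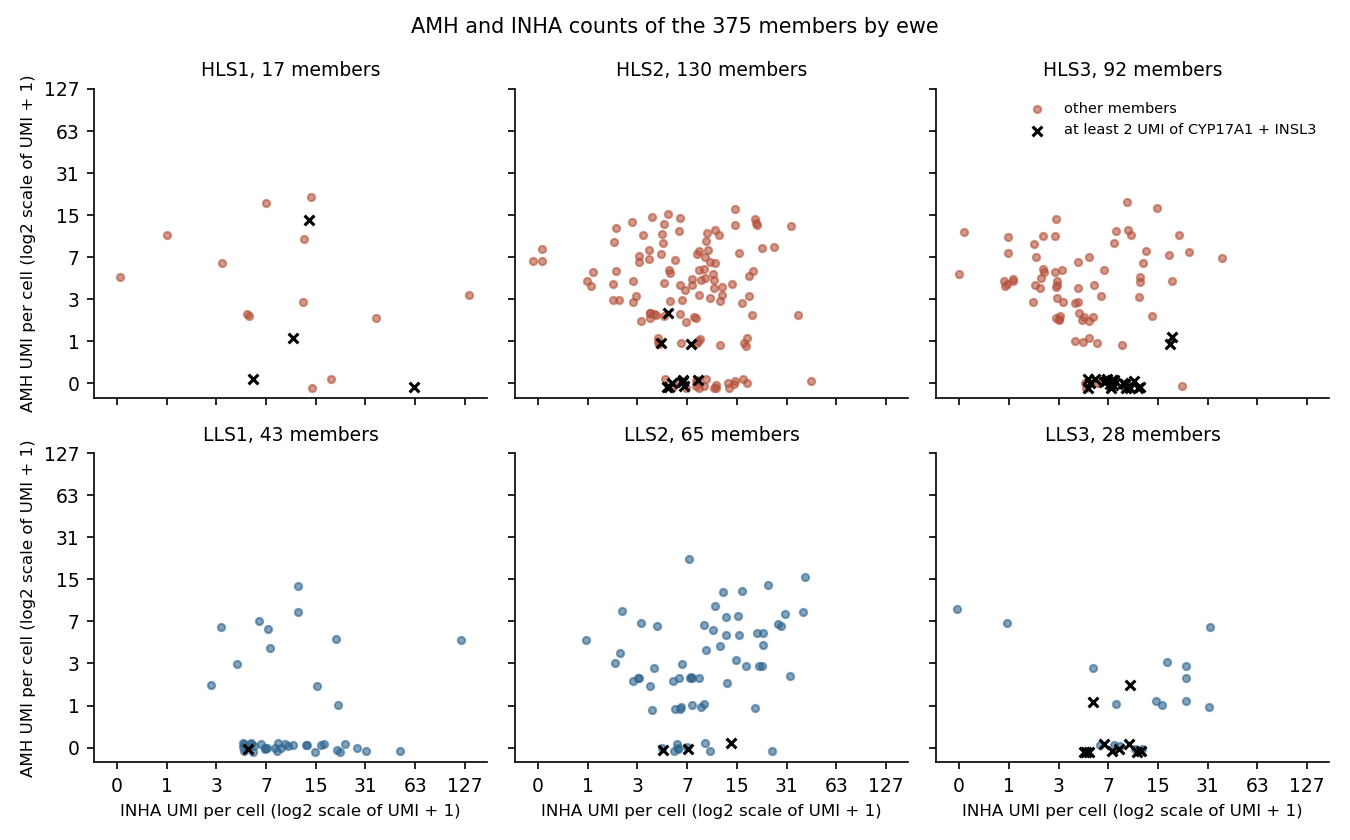
AMH UMI against INHA UMI of each INHA/AMH-high cell, both on a log2 scale of UMI + 1 with small random offsets so that points do not cover each other, with a panel per ewe. Crosses are the 51 cells with at least 2 UMI of CYP17A1 and INSL3, which lie mostly at 0 UMI of AMH, and LLS1 has a row of 31 cells without AMH.

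The limit of 5 UMI did not mark a step in the other genes. Just outside it, the 73 cells with 4 UMI of AMH and INHA had an IHH level of 0.270, and just inside it the 46 cells with 5 UMI had 0.104, from 20 and 5 UMI respectively. HLS3 held 14 of the 20, and without HLS3 the levels were 0.122 and 0.112. FST was at 6.24 and 5.34 in the same cells, and HSD17B1, which converts estrone to estradiol, at 3.42 and 3.84. Most IHH lay far from the limit, since the 251 cells with 8 or more UMI held 414 of the 437 UMI of IHH of all INHA/AMH-high cells and had a level of 1.27. Over the same classes, SELENOP, a selenium carrier, went from 5.51 in gate cells without AMH or INHA to 0.834 in cells with 8 or more. These values are a description, as the classes follow a count of the same cells and deeper cells reach higher classes. The mean depth was 10494 UMI at 0 and 12946 UMI at 8 or more.

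**Figure D3:**
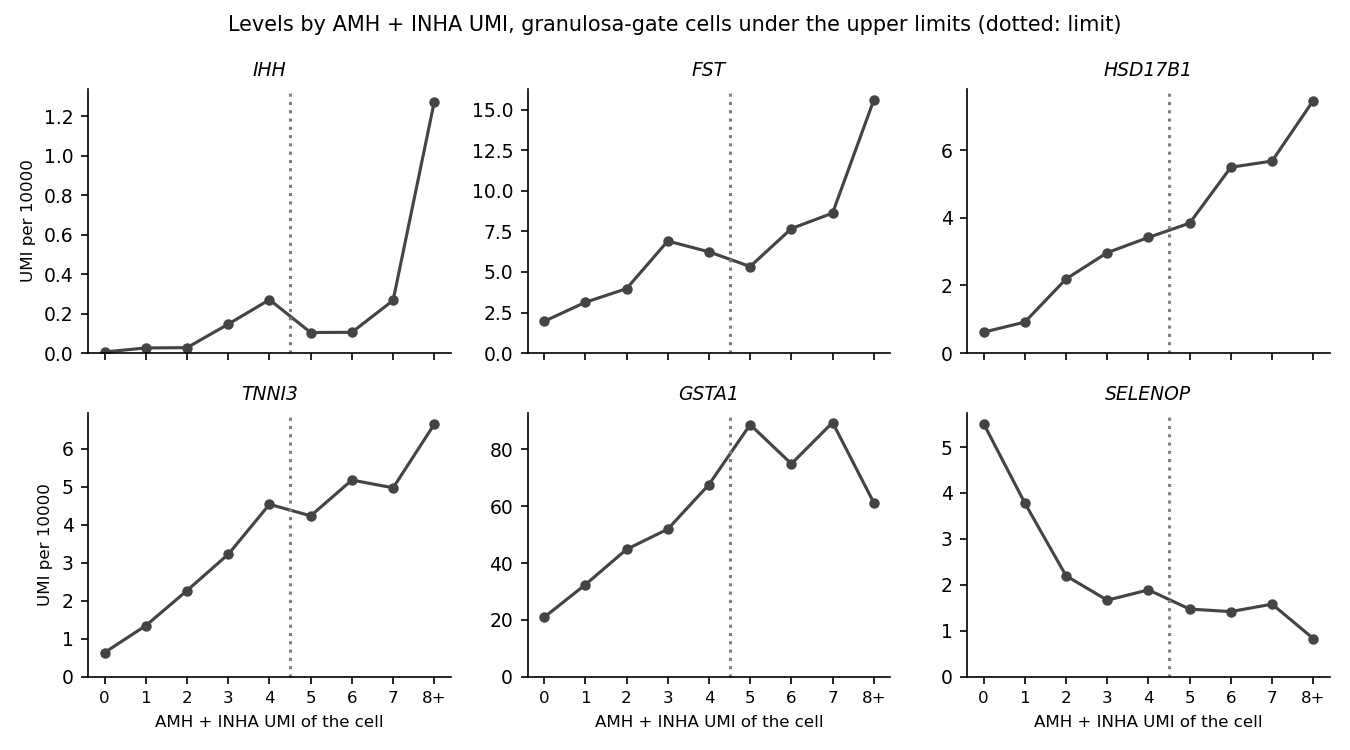
Level of 6 genes (UMI per 10000, linear axes from 0) in granulosa-gate cells under the 3 upper limits, by their UMI of AMH and INHA, pooled over ewes, with the limit as a dotted line. HSD17B1 goes from 0.618 at 0 UMI to 7.47 at 8 or more without a step at the limit, TNNI3 from 0.639 to 6.65, and SELENOP goes down.

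The INHA/AMH-high cells were then set beside the other gate cells, within each ewe and without a test, because the selection itself read these cells. Of 9033 genes detected in at least 10% of either side, 901 (9.97%) were higher and 1015 (11.2%) lower in 6 of 6 ewes, and the median log2 ratio over all genes was 0.01. Without the marked cells the balance turned, with 1045 of these genes higher and 841 lower in 6 of 6 ewes. In the cells of the other side, LLS3 stood apart, with 60.3 UMI per 10000 of 6 luteal genes against 1.18 to 2.15 in the other ewes.

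The genes with the highest ratios that the selection did not use included RHBG, an ammonium transporter gene, with a median log2 ratio of 2.39 and a range over ewes of 1.13 to 3.67. CKM, the muscle-type creatine kinase, followed with 1.98 (0.91 to 3.55) and was detected in 32.3% of the INHA/AMH-high cells and in 9.69% of the others. NQO1, a quinone reductase, had 1.97 (0.44 to 3.35), and GCLC, the catalytic subunit of the first enzyme of glutathione synthesis, had 1.58 (0.55 to 1.97). CHRNA2 (1.82), FRMD3 (1.78), LARGE2 (1.69), ZNF536 (1.68), LOC101118990 (2.05), LOC121816819 (1.94) and LOC101102845 (1.61) were also higher in 6 of 6 ewes, with and without the marked cells. Others depended on those cells. Without them ERP27 was higher in 3 of 6 ewes (median log2 ratio 1.96 with and -0.17 without them), LOC101109939 in 4 (2.18 and 0.86) and CALB2 in 5 (1.75 and 1.70).

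The genes with the lowest ratios included MUSTN1 (median log2 ratio -4.60), KRT8, a keratin of simple epithelia (-4.17), XIRP1 (-3.97), the collagenase gene MMP1 (-3.96, lower in 5 of 6 ewes without the marked cells), RUNX2, a transcription factor (-3.72), ANKH (-3.51), S100A4 (-3.41) and LOC101114082 (-4.13). CENPF (-3.78) and ASPM (-3.57) act in mitosis, and the cell cycle limit of the selection bears on them. RUNX2 was detected in 9.07% of the INHA/AMH-high cells and in 51.9% of the other gate cells.

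Mural granulosa cells line the follicle wall. Of the 8 measured genes of their list, HTRA3 and JPH1 of the selection left out, 6 were lower in 6 of 6 ewes. Over all genes this share was 11.2%, and the list had a median log2 ratio of -2.79. The selection bears on the list, MUSTN1 and RUNX2 included, since 405 of the 1651 other gate cells were over the HTRA3 and JPH1 limit. The values of this list are therefore a description. TIMP1, an inhibitor of matrix proteases, was at 4.33, 2.04 and 3.73 in the INHA/AMH-high cells of the HLS ewes and at 9.40, 4.07 and 5.27 in those of the LLS ewes. In the other gate cells TIMP1 was between 18.7 and 172, so that no ewe overlapped. IGFBP5, which binds insulin-like growth factors, was at 1.60 to 8.99 against 6.62 to 30.1. In the list of insulin-like growth factor genes, 4 of 9 were lower in 6 of 6 ewes (IGFBP3, IGFBP5, IGFBP6 and IGF2R), and none was higher in all. Without the marked cells 5 were lower (IGFBP3, IGFBP5, IGF2R, IGF1R and IGF2, but not IGFBP6) and IGFBP2 was higher in 6 of 6 ewes.

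Of 13 measured markers that the study assigned to cumulus cells, which enclose the oocyte, 9 were higher and 1 was lower in 6 of 6 ewes, with a median log2 ratio of 0.97. The study chose this list on these libraries, and it is therefore no independent evidence. Its troponin gene TNNI3 was at 10.2, 7.09 and 4.93 in the HLS ewes and at 4.53, 6.06 and 4.17 in the LLS ewes, and the other gate cells had 1.22 to 4.33. GSTA1, a glutathione transferase, was at 62.7, 70.0 and 75.5 in the HLS ewes and at 67.0, 35.9 and 111 in the LLS ewes. A large part of GSTA1 came from the marked cells, in which its level was 194, 153 and 157 in HLS2, HLS3 and LLS3. Without them it was at 25.3 in HLS3 and 48.7 in LLS3, below the other gate cells of the same ewes (28.7 and 56.6).

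Of the beta subunit genes, INHBA was at 6.91, 3.58 and 1.39 in the INHA/AMH-high cells of the HLS ewes and at 22.6, 1.94 and 3.82 in those of the LLS ewes. LLS1 thus stood far above the other ewes, as it did in the other gate cells, where its level was 10.3 and the rest had 1.28 to 3.29. LLS1 and HLS1 had the most INHBA and HLS3 the least, the same ewes as for INHA. INHBB was at 0.582 to 2.13 in the INHA/AMH-high cells and at 0.641 to 1.81 in the other gate cells, ranges that overlapped almost wholly. FSTL3, which also binds activin, was lower in 6 of 6 ewes (median log2 ratio -1.18), and TGFBR3, a coreceptor of inhibin, was higher in 6 of 6 (0.70), or in 5 of 6 without the marked cells. The receptor of AMH, AMHR2, had 8 UMI in all INHA/AMH-high cells, too few to compare.

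Of the hedgehog pathway, the receptor gene PTCH1 had 98 UMI and the target GLI1 had 11 UMI in all INHA/AMH-high cells, and 51 and 10 of these were in the 51 marked cells. Of the 4 genes of the pathway detected in at least 10% of cells, IHH was higher in 6 of 6 ewes and none of the others was.

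FSHR, a gate gene, was at 0.710 to 1.93, and PRKAR2B, a regulatory subunit of the kinase that cyclic AMP activates, at 8.90, 10.6 and 11.4 in the HLS ewes and at 15.4, 10.2 and 12.6 in the LLS ewes, above the 3.47 to 8.31 of the other gate cells. LHCGR was at 1.31, 1.74 and 5.10 in the HLS ewes and at 2.92, 0.155 and 10.5 in the LLS ewes. Its 1467 UMI were mostly those of the marked cells (1351 UMI). Without them LHCGR was at 2.08 in LLS1 and at most 0.383 in the other ewes. Of the 12 measured genes of steroid and cholesterol synthesis, 6 were higher in 6 of 6 ewes and none was lower in all, with a median log2 ratio of 0.67. Without the marked cells, and without CYP17A1, which marks them, 5 of 11 were higher and 2 lower (HSD3B1 and FDX1), with a median of 0.36, against 6 higher, none lower and 0.62 for the same 11 genes with all cells. HSD17B1 was at 6.18, 7.58 and 7.09 in the HLS ewes and at 4.53, 6.13 and 4.94 in the LLS ewes, where the other gate cells had 0.802 to 4.41. The electron carrier FDX1, which serves CYP11A1, had a median log2 ratio of 1.32, and of -0.32 without the marked cells. CYP11A1, which makes pregnenolone from cholesterol, was at 0.823 to 6.77, and at 0.179 to 3.47 without them.

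Among the transcription factors of granulosa cells, FOXL2, which maintains their identity, was at 1.20 to 1.56 in the 6 ewes and higher than in the other gate cells of each (median log2 ratio 0.74). GJA1, the main connexin of granulosa cells, was higher in 6 of 6 ewes (0.82), whereas GJA4, the connexin of the oocyte side, was lower in 6 of 6 (-2.90). VCAN, a proteoglycan, was higher (0.99) and fibronectin (FN1) lower (-2.35, in 5 of 6 ewes without the marked cells). Of the 37 measured genes of oxidative phosphorylation, 14 were higher in 6 of 6 ewes and none was lower in all, with a median log2 ratio of 0.17 that was small beside those above, or 10 and 0.16 without the marked cells. The ferritin genes FTH1 and FTL, which store iron, were lower in 6 of 6 ewes (-0.62 and -0.55).

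To ask what goes with AMH within the INHA/AMH-high cells, those above their ewe's median share of AMH in the AMH and INHA UMI (AMH-leaning, 176 cells) were compared with the rest (INHA-leaning, 199 cells). UMI were summed per ewe and class, and the quasi-likelihood test of edgeR was used with the ewe as a block. HLS1, with only 7 AMH-leaning cells, was left out. The median share was 32.3% in HLS2, 35.4% in HLS3, 0% in LLS1, 21.2% in LLS2 and 1.61% in LLS3. In LLS1 and LLS3 the AMH-leaning cells were thus those with any UMI of AMH. They held 63 and 41 UMI of AMH against 240 and 208 of INHA, so that the class differs in meaning between ewes. The median depth of the classes was similar in 4 of the 5 ewes used, but in LLS1 it was 12608 UMI in the AMH-leaning and 2740 UMI in the INHA-leaning cells. The INHA-leaning class held 48 of the 51 cells marked by CYP17A1 and INSL3. The granulosa gate counts INHA and does not count AMH, so that a cell with few UMI of FST, CDH2 and FSHR could enter through INHA. Such cells were almost all INHA-leaning. The 28 cells with none of these 3 genes were INHA-leaning, and of those with 1 to 3 UMI of them 35 were INHA-leaning and 2 AMH-leaning. The selection thus fixed part of the difference between the classes. Of the 28 and 35 INHA-leaning cells, only 12 and 16 were marked. The values with all cells, and those with only the marked cells left out, are a description. The test was therefore repeated in cells that passed the gate without their INHA UMI, a setting chosen after the data were seen. It rested on HLS2, HLS3, LLS1 and LLS2.

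With all cells, 256 of 6804 genes (3.76%; 15.7% at an unadjusted p under 0.05) passed an adjusted p of 0.05, of which 82 (1.21%) were higher and 174 (2.56%) lower in the AMH-leaning cells. Among the 256 were 2 genes that the selection read, CDH2 and INSL3. In the cells that passed the gate without INHA, 4 of 6655 genes (0.0601%; 7.14% at an unadjusted p under 0.05) passed. They were LHCGR, TMEM176B, ALDH1A1 and GSTA1, all lower in the AMH-leaning cells. With the marked cells also left out, none of 6174 genes passed (0.0% called; smallest edgeR adjusted p = 0.354), and 342 genes (5.54%) had an unadjusted p under 0.05. When only the marked cells were left out, 6 of 6307 genes (0.0951%; 7.31% at an unadjusted p under 0.05) passed in the 4 ewes that remained (HLS2, HLS3, LLS1 and LLS2), each lower in the AMH-leaning cells and each among the 256. With all cells and the same 4 ewes there were 195 calls. Of the 256 genes, 200 could also be tested without the marked cells, and 194 of these kept their direction. The median absolute log2 difference of the 200 was 1.25 with all cells of 5 ewes. It was 0.65 without the marked cells in 4 ewes, so that cells and ewes changed together. The count of calls with all cells was 118 without HLS2 and 52 without HLS3.

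IHH was higher in the AMH-leaning cells of each ewe used, although its call rested on the cells included. It was at 1.35, 0.939, 1.03, 3.02 and 1.71 in the AMH-leaning cells of HLS2, HLS3, LLS1, LLS2 and LLS3. The INHA-leaning cells of the same ewes had 0.474, 0.209, 0, 0.789 and 0.0574, each lower. The log2 difference was 2.13 ± 0.29 (SE) with all cells. In the cells that passed the gate without INHA it was 1.47 ± 0.27 and did not pass (edgeR adjusted p = 0.0847). It did not pass either without the marked cells (1.31 ± 0.27, edgeR adjusted p = 0.109), with both groups of cells left out (1.39 ± 0.28, edgeR adjusted p = 0.354) or with cells thinned to 3000 UMI (0.96, edgeR adjusted p = 0.211). Without the ewe in the model the difference was 2.12, and it did not pass (edgeR adjusted p = 0.14). Detection of IHH was 30.7% in the AMH-leaning and 10.1% in the INHA-leaning cells, or 35 of 175 and 14 of 162 cells (8.64%) after thinning.

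The 6 genes lower in the AMH-leaning cells with the marked cells left out were LHCGR, TMEM176B, ALDH1A1 (which makes retinoic acid), GSTA1, ARHGAP18 and DAB2 (an endocytic adaptor). GSTA1 was then at 29.9, 15.2, 23.5 and 25.6 in the AMH-leaning cells of HLS2, HLS3, LLS1 and LLS2, and at 81.5, 34.0, 108 and 45.3 in the INHA-leaning cells, so that the classes did not overlap. Its log2 difference was -1.38 ± 0.19 (SE, edgeR adjusted p = 0.00836), and -1.18 ± 0.22 with both groups of cells left out (edgeR adjusted p = 0.354). LHCGR was at 0, 0.0776, 0 and 0 in the AMH-leaning and at 0.389, 0.645, 4.45 and 0.165 in the INHA-leaning cells, with LLS1 far above the rest. Its log2 difference was -5.09 ± 0.57 (SE, edgeR adjusted p = 0.00213). In the cells that passed the gate without INHA it was -6.26 ± 0.43 (edgeR adjusted p = 1.29e-05). ALDH1A1, TMEM176B and GSTA1 had log2 differences of -4.10 ± 0.48, -2.76 ± 0.29 and -1.54 ± 0.23 (SE) there, whereas ARHGAP18 and DAB2 did not pass (edgeR adjusted p = 0.144 and 0.0847). None of the 6 genes passed with both groups of cells left out, where LHCGR and ALDH1A1 had too few UMI to be tested.

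**Figure D4:**
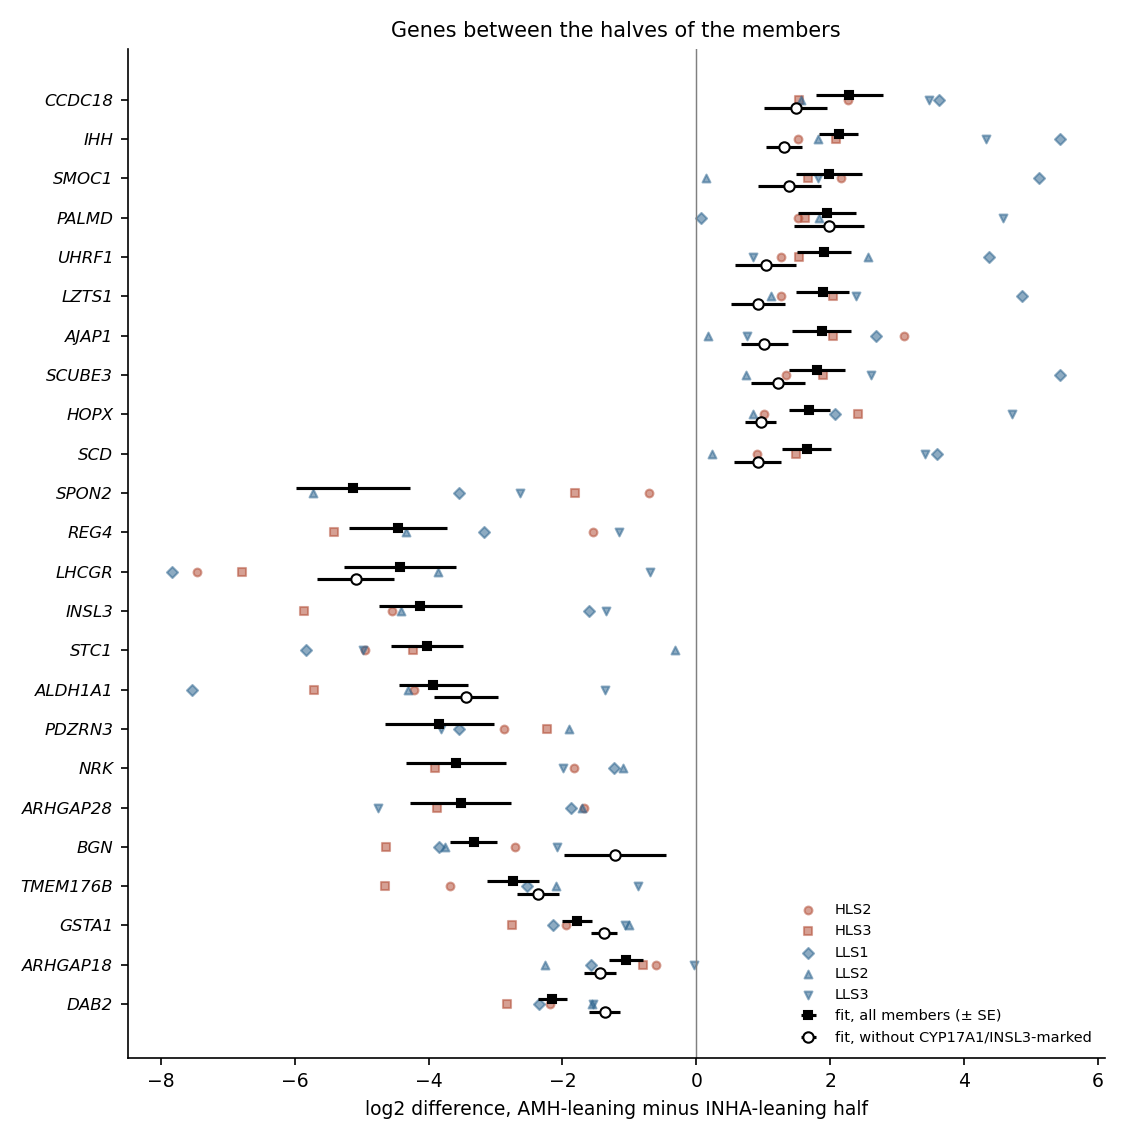
Log2 difference between AMH-leaning and INHA-leaning cells (horizontal axis) of the 10 genes with the largest rise and the 10 with the largest fall among those called with the same sign in 5 of 5 ewes, and of 4 further genes called without the marked cells. Coloured symbols are ewes, black squares the fit with all cells and open circles the fit without the cells marked by CYP17A1 and INSL3, with bars of 1 SE, and the open circles of the genes that rise lie nearer to 0 than the squares for all but PALMD.

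Other genes higher in the AMH-leaning cells of 5 of 5 ewes with all cells were CCDC18 (log2 difference 2.28), SMOC1 (1.98), PALMD (1.95), UHRF1, a maintenance factor of DNA methylation (1.91), LZTS1 (1.89), AJAP1 (1.87), SCUBE3 (1.80), HOPX (1.69) and SCD, a fatty acid desaturase (1.65), none of which passed without the marked cells or in the cells that passed the gate without INHA. Their log2 differences stayed positive, at 0.91 (SCD) to 1.98 (PALMD) without the marked cells. In the cells that passed the gate without INHA they were 0.54 (UHRF1) to 1.65 (CCDC18). The largest falls were SPON2 (-5.13), REG4 (-4.46), LHCGR (-4.43), INSL3 (-4.12, also read by the gate), STC1 (-4.03), ALDH1A1 (-3.93), PDZRN3 (-3.84), NRK (-3.59), ARHGAP28 (-3.52) and the proteoglycan BGN (-3.33). Without the marked cells LHCGR and ALDH1A1 passed, BGN did not (-1.21, edgeR adjusted p = 0.79), and the other 7 had too few UMI to be tested. REG4 did not pass without HLS3 (edgeR adjusted p = 0.188). With all cells and single ewes left out, REG4 ranged from -7.32 to -3.15, LHCGR from -8.06 to -3.53 and INSL3 from -6.54 to -3.26. The list counts that follow leave out genes the selection read. Of the 4 theca genes tested, 3 passed with all cells, all lower, and of the 5 stromal genes 5 passed, all lower (median log2 difference -1.81, against 0.01 over all genes tested, of which 2.56% were called lower), which include collagens and DCN. Of the 3 luteal genes tested 2 were called lower (LHCGR and HSD3B1, median -2.27). Of the 3 endothelial genes tested 1 was called higher (VWF, 1.89, against 1.21% of all genes called higher), with a median of 1.54, or 1.15 and no call without the marked cells. The part of endothelial RNA in the other differences was not tested. Without the marked cells none of the 5 stromal genes tested passed (median -0.67). FST, CDH2 and FSHR, the gate genes, had log2 differences of 0.97, 0.998 and 0.65 with all cells and of 0.02, 0.22 and -0.12 without the marked cells, given without a test because the selection read them.

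HLS and LLS were compared with the ewe as the unit. The study set these groups side by side to ask how ovaries of ewes with large and small litters differ. The INHA/AMH-high cells made up 10.2%, 36.4% and 12.96% of the gate cells in HLS1 to HLS3, and 26.1%, 17.96% and 10.5% in LLS1 to LLS3. The exact 95% binomial interval of HLS2 was 31.4 to 41.6%, above those of HLS1 (6.08 to 15.9%) and HLS3 (10.6 to 15.7%), where intervals cover counting error only. The HLS ewes thus differed more among themselves than from the LLS ewes. The means were 19.9% ± 14.4 and 18.2% ± 7.77 (SD of 3 ewes), a difference within the spread (exact permutation test, two-sided, p = 0.9). Without HLS2, the difference of 1.69 percentage points became -6.58. A design of 3 against 3 cannot give p below 0.1.

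**Figure D5:**
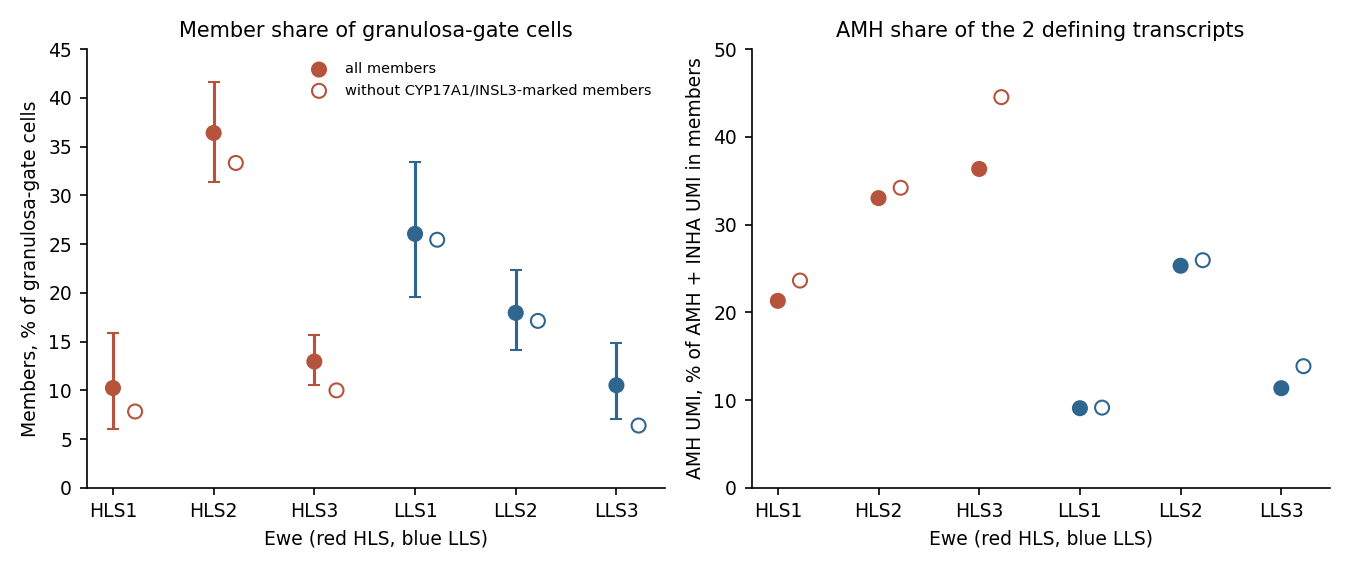
Left, INHA/AMH-high cells as a percent of granulosa-gate cells per ewe with exact 95% binomial intervals, and right, AMH as a percent of AMH and INHA UMI in these cells, with open circles for values without the cells marked by CYP17A1 and INSL3 (red HLS, blue LLS). The shares overlap between groups on the left, and on the right only LLS2 exceeds the lowest HLS ewe.

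As a share of all filtered barcodes they made up 0.301%, 1.76% and 1.58% in HLS1 to HLS3 against 0.651%, 1.20% and 0.371% in LLS1 to LLS3 (two-sided exact permutation test, unadjusted p = 0.4). The AMH share of the AMH and INHA UMI came to 21.3%, 33.0% and 36.4% in HLS1 to HLS3, against 9.08%, 25.3% and 11.4% in LLS1 to LLS3. The means were 30.2% ± 7.90 and 15.3% ± 8.79 (SD of 3 ewes), given without a test because the selection read these UMI. LLS2 exceeded HLS1, so that the groups overlapped. The order of LLS2 and HLS1 depends on 1 HLS1 cell, which held 135 of the 358 INHA UMI and 3 of the 97 AMH UMI of that ewe. Without the marked cells the shares were 23.6%, 34.2% and 44.5% against 9.14%, 26.0% and 13.9%, in the same order of ewes. The depth of these cells was lowest in LLS1, which also had the lowest AMH share. With each cell thinned to 3000 UMI before the selection, the shares were 7.80%, 25.8% and 35.5% against 7.14%, 24.4% and 10.4%, and the difference between the means went from 14.98 to 9.07 percentage points.

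With UMI summed per ewe, none of 6522 genes passed between HLS and LLS (0.0% called; edgeR quasi-likelihood test with Benjamini-Hochberg adjustment, smallest adjusted p = 0.778). At an unadjusted p under 0.05 there were 229 genes (3.51%), 85 higher and 144 lower in HLS, and without TMM scaling factors 24 were higher and 219 lower, as the median log2 difference then moved from -0.02 to -0.14. DESeq2 also called none, with 197 genes at an unadjusted p under 0.05. On simulated data the edgeR test between HLS and LLS recovered 10% of 2-fold and 92% of 4-fold changes. The absence of calls therefore does not show that the groups were alike. Without the marked cells none of 6168 genes passed (smallest edgeR adjusted p = 0.184), and 381 (6.18%) had an unadjusted p under 0.05, 194 higher and 187 lower in HLS. IHH had a log2 difference of -0.42 ± 0.45 (± SE), not past the threshold. With single ewes left out it ranged from -0.73 to 0.32, and it was positive without LLS2. For the genes that the selection read, the differences are given without a test. AMH was at 0.69 ± 0.37 (0.42 without LLS3 to 1.15 without LLS2). INHA was at -0.48 ± 0.45 (-1.07 without HLS1 to -0.049 without LLS1). FST was at 0.05 ± 0.38 (-0.52 without HLS1 to 0.37 with other ewes left out).

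The 5 genes with the smallest p did not overlap between the groups, as was so for 10.9% of all genes tested. RUNX2 was at 0.0363, 0.0253 and 0.116 in the HLS ewes and at 0.652, 0.672 and 0.266 in the LLS ewes, a log2 difference of -2.95 ± 0.54 (SE, edgeR adjusted p = 0.778). FN1 was at 0.145, 0.0633 and 0.0943 against 0.618, 0.246 and 0.503 (log2 difference -2.17 ± 0.48, edgeR adjusted p = 0.986). IGFBP5 was at 1.60, 1.70 and 1.99 against 8.99, 2.95 and 5.27 (-1.53 ± 0.36, edgeR adjusted p = 0.986), or -2.76 without the marked cells (0.791). These 3 genes were also among those lower in the INHA/AMH-high cells than in the other gate cells of every ewe, FN1 in 5 of 6 ewes without the marked cells. LOC101114226 had a log2 difference of -2.47 ± 0.47, whereas NME3, a nucleoside diphosphate kinase, was higher in HLS, at 1.56, 1.30 and 1.38 against 0.721, 0.724 and 0.769 (1.07 ± 0.26). Without the filter on low counts, RUNX2, LOC101114226, FN1 and IGFBP5 passed (edgeR adjusted p = 2.16e-06, 9.13e-06, 0.00713 and 0.00225), and NME3 did not (0.123).

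No list held a gene past the adjusted threshold between HLS and LLS. At an unadjusted p under 0.05, 3 of the 8 insulin-like growth factor genes tested were lower in HLS (IGFBP5, IGFBP3 and IGF2R), against 2.21% of all genes. Without the marked cells 7 were tested, the same 3 were lower and IGFBP2 was higher (log2 difference 0.72). The median of the list went from -0.53 to -0.07. In the glycolysis list HK2 and LDHA were lower, 2 of 14. Of 37 genes of oxidative phosphorylation 1 was higher, NDUFB8, and the median log2 difference was 0.18 against -0.02 over all genes. A further list held genes named for a change between the groups in granulosa cell subtypes of these same libraries, which makes it no independent evidence. Of its 13 genes tested, PLD1 alone had an unadjusted p under 0.05 and was lower in HLS (log2 difference -1.19 ± 0.43). FTH1 was at 7.34, 3.48 and 3.05 in the HLS ewes and at 4.77, 2.12 and 1.89 in the LLS ewes, with overlap (0.88 ± 0.46), and COL4A4, a basement membrane collagen, at 1.38, 2.16 and 2.31 against 1.41, 2.20 and 1.30. None of 14 glutathione genes and none of 4 inhibin and activin genes that the selection did not read reached an unadjusted p under 0.05.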

How the data were processed

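The library of each ewe was analysed as deposited. Reads were mapped by the authors in Cell Ranger 5.0.0 (STAR), who deposited raw UMI counts per gene and barcode, without normalization. The genome build is not given in the sources used here, and CYP19A1 is listed as CYP19. Total UMI per library ranged from 43329214 to 75549906. Ewes were grouped by the deposited titles. The members, the gene lists and the tests were chosen with earlier results of these data known. The split into AMH-leaning and INHA-leaning cells is of the same kind, and the removal of cells with at least 2 UMI of CYP17A1 and INSL3 was chosen after seeing the data, as was the repeat in cells that pass the gate without INHA.

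Filters were the limits on UMI and mitochondrial share that the report states. Doublets were called per ewe from simulated doublets (2 per barcode, expected share 0.8% per 1000 barcodes) and retained in the main values. For log2 ratios within ewes 1 UMI was added to both sums. Counts were summed per ewe where at least 10 cells were present. Genes were filtered with filterByExpr, scaled with TMM factors and tested with edgeR 4.0.16 (quasi-likelihood, limma 3.58.1, R 4.3.3), with a Benjamini-Hochberg adjusted p of 0.05 over all genes, after a check on simulated data. DESeq2 1.42.0 was an alternative. Python 3.11.15, numpy 2.4.6, scipy 1.17.1, pandas 2.3.3, scikit-learn 1.9.0 and matplotlib 3.10.9 were used. Each ewe is 1 sample, and p values of sums measure the spread between ewes.

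The text names genes of the lists. It also names the 15 highest and 10 lowest median ratios, among genes with a UMI in at least 10% of the cells and the same sign in each ewe, of which 1 is not reported here. Between AMH-leaning and INHA-leaning cells it names up to 10 rises and 10 falls with the largest fold that pass and move alike in each ewe, and without marked cells the 6 called. Between HLS and LLS, as none passed, it names the 5 with the smallest p. Symbols are those of the files. Genes of the lists with other names there, such as GNAS and HHIP, were not analysed here.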

Additional observations from a re-analysis of the deposited data

Results flagged for a closer look

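Among 49 sets of per-ewe values of the named genes, 2 had an ewe whose gap to the nearest other ewe was large for the range of the set, where chance flags about 1 in 20. ASPM, a gene of the mitotic spindle, had a log2 ratio of INHA/AMH-high to other gate cells of -0.84 in HLS1 and of -4.56 to -3.18 in the other 5 ewes. STC1, which encodes a secreted glycoprotein, had a log2 difference of -0.31 between AMH-leaning and INHA-leaning cells in LLS2 and of -5.83 to -4.24 in the other 4.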

How the results depend on the processing

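The excess of HLS in the share of INHA/AMH-high cells among gate cells, 1.69 percentage points, turned to -1.82 with a limit of 3 UMI of AMH and INHA and to -1.90 with cells thinned to 3000 UMI, and ranged from -6.58 (without HLS2) to 6.51 with single ewes left out, negative also without LLS3 (-2.14). The excess in the share of all filtered barcodes, 0.472 percentage points, was positive in each alternative run, at 0.0887 with thinned cells, 0.266 with at least 8 UMI of AMH and INHA, 0.719 without upper limits and 0.1999 to 0.928 with single ewes left out. The excess in the AMH share, 14.98, was positive too, at 9.07 with thinned cells, 9.91 without upper limits and 11.9 to 20.02 with single ewes left out. The number of INHA/AMH-high cells was 585 without upper limits and 142 with thinned cells. The cause of these moves was not tested.

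Between HLS and LLS, 48 genes passed without a filter on low counts, 1 with the replicate number as a block, and 0 to 1 with single ewes left out, the 1 being without LLS3. The labels do not state that the numbers pair the ewes. Correlations of deviations were 0.04, 0.18 and 0.18 for the same number and -0.179 to 0.026 for different numbers. These values alone do not settle whether the numbers pair the ewes. FST, at 0.05, reversed to -0.18 without TMM factors, -0.0596 without the marked cells, -0.10 with the replicate block and -0.52 without HLS1 (to 0.37 with other ewes left out), and IHH, at -0.42, ranged from -0.73 to 0.32, reversed without LLS2. Between AMH-leaning and INHA-leaning cells, 135 genes passed with DESeq2, 478 without a filter on low counts, 44 with thinned cells (2289 genes tested), 81 with at least 8 UMI of AMH and INHA, 6 without the marked cells, 4 in cells that passed the gate without INHA and 0 without both, 0 with no replicate block (the ewe not in the model; 644 at an unadjusted p under 0.05), and 52 to 280 with single ewes left out. FSHR reversed to -0.12 without the marked cells, -0.012 in cells that passed the gate without INHA and -0.21 without both, where FST, at 0.97, turned to -0.068. Of the other values of the genes named between these classes, 308 stayed on their side of the threshold, 127 no longer passed and 1 was stronger. Precision is limited by the 17 cells of HLS1 and by the median of 5652 UMI per cell in LLS1.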
